A study of Mus musculus with 6 samples.

Results

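The genes described here are 9 stress-responsive genes of the mouse: the heat shock genes Hspa1a, Hspa1b, Hsph1, Dnajb1, Hsp90aa1, Hspa8 and Hspb1, and Cirbp and Rbm3, which encode cold-inducible RNA-binding proteins. They were taken by gene symbol from a table of 55487 genes. All 9 symbols were found once, and all 9 genes passed the filter on low counts that left 15114 genes for testing. RNA-seq was performed on 6 subcutaneous tumors grown from CT26.WT cells, a clone of a BALB/c colon carcinoma line, in male immunocompetent BALB/c mice labelled wild type and bought at 4 weeks of age. In the 3 tumors of the IFN-γ group the host mice had been given recombinant interferon-γ by tail vein (100 µL at 100 ng/mL, repeated every 48 h), and the hosts of the 3 tumors of the control group had been given PBS instead. Both groups carried the same implanted cells. The injection was systemic, and how much of the cytokine reached the tumors was not measured in these data. The comparison asked which genes differed in tumors of treated mice. The hour at which tumors were taken and how long they were handled before RNA extraction are not given in the sources used here.

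Heat shock proteins are molecular chaperones. When proteins unfold, for example in warm or otherwise stressed cells, the transcription factor HSF1 is released from chaperones, forms trimers and binds heat shock elements, which are repeats of the letters GAA in alternating orientation, upstream of genes such as Hspa1a and Dnajb1. Cirbp and Rbm3 respond in the opposite sense: both messages rise when cells are cooled by a few degrees, and Cirbp follows the daily swing of body temperature. Tumor cells often keep chaperones such as HSC70 and HSP90 at high levels. For these reasons the genes are read as markers of temperature, protein damage and sample handling.

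None of the 9 genes passed the threshold of the test across all genes (edgeR's quasi-likelihood test, Benjamini-Hochberg adjusted p under 0.05), neither in the higher nor in the lower direction. In the same fit 12 of 15114 genes were higher in the IFN-γ group, which is 0.0794%, and 5 were lower, which is 0.0331%, so that very few genes were called at all. The levels of 3 genes did not overlap between the groups: Rbm3 and Hspa8 lay higher in every IFN-γ tumor than in any control tumor, and Cirbp lay lower. Of all genes tested, 7.62% were higher and 7.5% were lower without overlap, so this pattern was common in the table. The stress-inducible genes Hspa1a and Hspa1b, which react most strongly to heat, were at low levels in the counts of all 6 tumors. They share sequence, and shared reads may be missing from these counts. The median log2 fold change of the 9 genes was 0.03, beside 0.0015 over all genes tested. All values below are CPM, the count of a gene scaled to a common library size with TMM factors, and folds are IFN-γ over control.

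**Figure D1:**
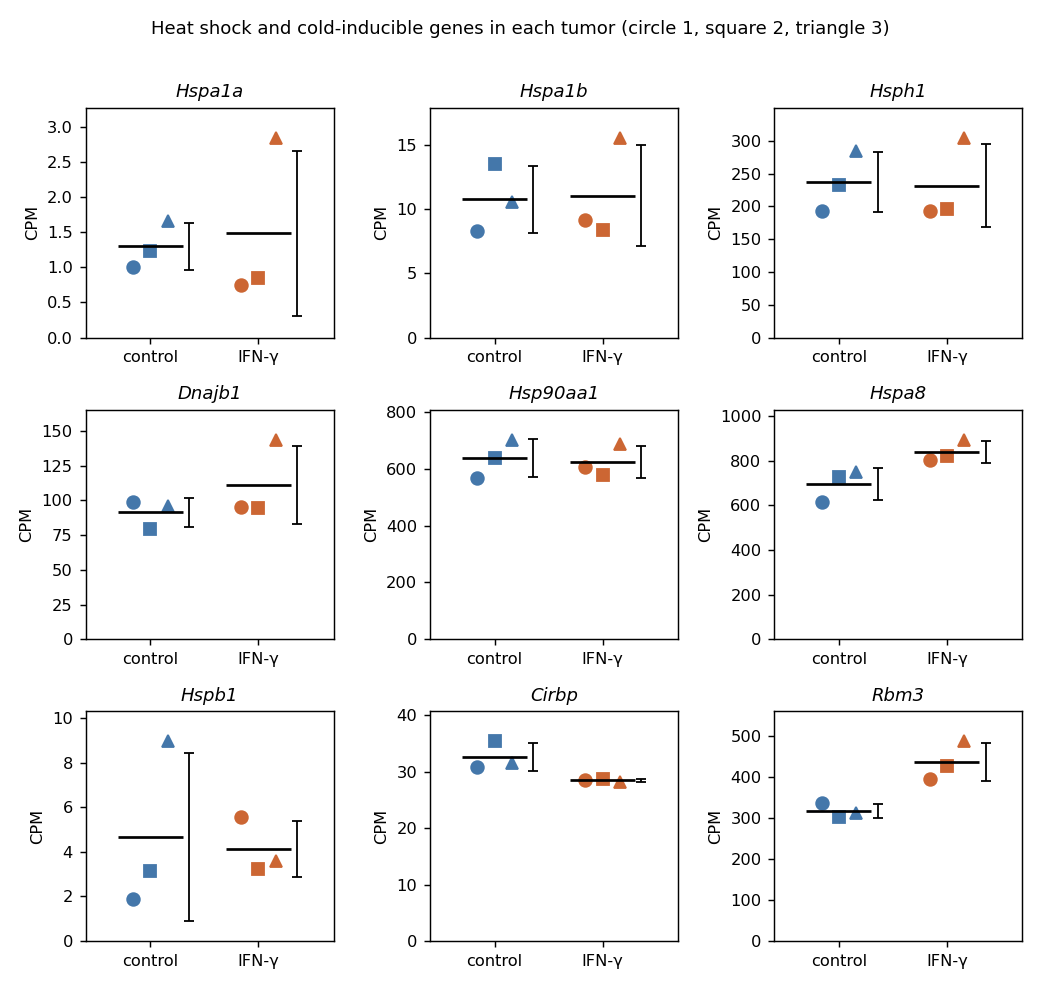
CPM of the 9 genes in each of the 6 tumors (circle, square and triangle for tumors 1, 2 and 3 of a group), with the group mean as a horizontal line and a bar of 1 SD above and below it (n = 3). Rbm3 and Hspa8 lay higher in the 3 IFN-γ tumors and Cirbp lay lower, without overlap, while IFN-γ tumor 3 stood above the other 5 tumors for Hspa1a, Hspa1b, Hsph1 and Dnajb1.

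Rbm3 (ENSMUSG00000031167, chromosome X, 8138975 to 8145880 on the minus strand, GRCm38) encodes a small glycine-rich RNA-binding protein that is induced by mild cold and binds messages in the cytoplasm and nucleus. Its level was 335, 302 and 312 CPM in control tumors 1, 2 and 3. In IFN-γ tumors 1, 2 and 3 it was 394, 426 and 486 CPM. Each IFN-γ tumor was thus above each control tumor, and the gap between the groups was larger than the range within the control group. The means were 316 ± 17.2 CPM and 435 ± 46.8 CPM (SD, n = 3 each), a 1.38-fold ratio. The log2 fold change was 0.46 with a standard error of 0.095 and a 95% interval of 0.24 to 0.68. It did not pass across all genes in edgeR (adjusted p = 0.196, rank 87 of 15114 by unadjusted p), and the exact permutation test of the mean gave p = 0.1, the smallest that 3 tumors against 3 allow. Under DESeq2 Rbm3 was called higher (adjusted p = 0.0031), as 0.822% of the genes tested there were. It was also called in edgeR without the filter on low counts (adjusted p = 0.022, background 0.558%) and without IFN-γ tumor 3 (log2 fold change 0.37, adjusted p = 0.049, background 2.46%). Over the alternatives the adjusted p ran from 0.0031 to 0.552, and the log2 fold change from 0.37 to 0.53.

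Rbm3 has processed pseudogenes, and 8.6% of the 100-base windows of its longest transcript occur unchanged in 3 of them. Rbm3-ps held 288 to 419 counts per tumor, Gm10156 219 to 362 and Gm48583 250 to 494, against 5351 to 7866 counts for Rbm3 itself. With the 3 copies added to Rbm3 the log2 fold change was again 0.46 (edgeR, adjusted p = 0.222). The antisense gene Rbm3os, which overlaps it on the other strand, held 6 to 12 counts.

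Cirbp (ENSMUSG00000045193, chromosome 10, 80165985 to 80172786, plus strand) encodes the cold-inducible relative of Rbm3, which carries the same kind of RNA recognition motif and stabilises messages under cold and other stress. It was measured at 30.9, 35.4 and 31.6 CPM in control tumors 1, 2 and 3. The IFN-γ tumors had 28.6, 28.8 and 28.3 CPM. The IFN-γ tumors lay close together and all under the lowest control tumor. The means were 32.6 ± 2.43 and 28.5 ± 0.257 CPM (SD, n = 3 each), and the log2 fold change was -0.19 (SE 0.089, 95% interval -0.40 to 0.009). The change was not called (edgeR, adjusted p = 0.504; exact permutation test, p = 0.1), and its interval just included 0. No 100-base window of Cirbp was found in another gene. A stretch of its promoter is shown because it holds, in capitals, the octamer TCCCCGCC that has been described as a mild-cold responsive element of this gene. It runs from 250 to 101 bases before the RefSeq start (chr10:80167589-80167738, plus strand, GRCm38.p6), which lies inside the gene as the annotation of the counts draws it.
Cirbp promoter: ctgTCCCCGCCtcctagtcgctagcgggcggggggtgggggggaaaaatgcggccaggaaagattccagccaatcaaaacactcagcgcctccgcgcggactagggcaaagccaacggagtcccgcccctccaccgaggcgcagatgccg
On either strand this octamer was present in 5.38% of 32851 RefSeq promoter windows of 300 bases, and in those of Hspa1a, Hspa1b, Dnajb1 and Cirbp among the 6 of the 9 genes for which a window was used. Windows of Hsp90aa1, Hspa8 and Rbm3 were not used here. A match of letters is a description and does not show that a factor binds.

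The 2 cold-inducible genes therefore stood apart in opposite directions, Rbm3 higher and Cirbp lower in the IFN-γ group. The ratio of Rbm3 to Cirbp was 10.9, 8.52 and 9.87 in control tumors 1, 2 and 3, and 13.8, 14.8 and 17.2 in IFN-γ tumors 1, 2 and 3. On the log2 scale this was 3.28 ± 0.18 against 3.93 ± 0.16 (SD, n = 3 each), a difference of 0.65 with no overlap. The ratio was formed after the values were seen and carries no test. Its lack of overlap follows from those of Rbm3 and Cirbp and adds nothing to them.

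**Figure D2:**
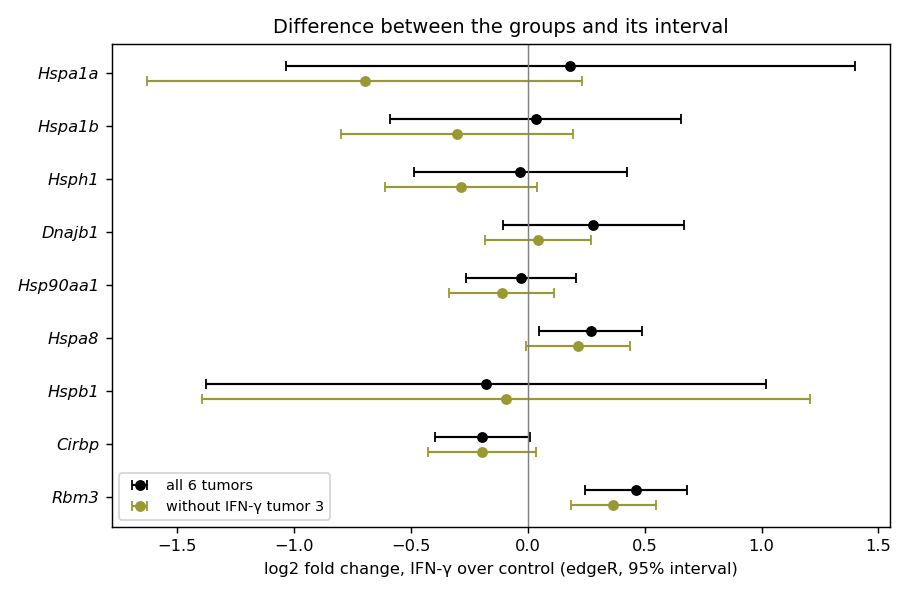
Log2 fold change of each gene, IFN-γ over control, from edgeR with its 95% interval, for all 6 tumors in black and without IFN-γ tumor 3 in olive. The intervals of Rbm3 and Hspa8 lay above 0 with all 6 tumors, and that of Hspa8 included 0 without IFN-γ tumor 3. Those of Hspa1a and Hspb1 were wide, and the fold changes of Hspa1a and Hspa1b changed sign without IFN-γ tumor 3.

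Hspa8 (ENSMUSG00000015656, chromosome 9, 40800984 to 40810087, plus strand) encodes HSC70, the constitutive HSP70 that folds new proteins and takes the clathrin coat off vesicles. Control tumors 1, 2 and 3 had 615, 726 and 751 CPM, and IFN-γ tumors 1, 2 and 3 had 804, 822 and 895 CPM. The groups did not overlap, but the distance from control tumor 3 to IFN-γ tumor 1 was smaller than the range of the controls. The means were 697 ± 72.8 and 840.2 ± 47.99 CPM (SD, n = 3 each), a 1.21-fold ratio. The log2 fold change was 0.27 (SE 0.096, 95% interval 0.05 to 0.49) and was not called (edgeR, adjusted p = 0.392; exact permutation test, p = 0.1). It kept its sign in every alternative run, from 0.19 to 0.32, but its 95% interval without IFN-γ tumor 3 included 0 (-0.01 to 0.44).

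The count of Hspa8 depends on how reads were assigned among near-identical copies. Gm15459, a processed pseudogene of Hspa8 on chromosome 5 (5781615 to 5783555, minus strand), held 14619 to 19885 counts per tumor, more than the 9829 to 14468 counts of Hspa8 itself in each of the 6 tumors. Of the 100-base windows of the longest Hspa8 transcript, 28.9% also occur in Gm15459, and 32.1% occur in some other gene. Which of these counts came from HSC70 messages cannot be told from the table. With 7 copies added, the tumors had 1543, 1773 and 1837 CPM in the control group and 1962, 2025 and 2143 CPM in the IFN-γ group. These sums also did not overlap, and their log2 fold change was 0.25 (SE 0.088; edgeR, adjusted p = 0.392). The sum with copies was chosen after the data had been seen.

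Hspa1a (ENSMUSG00000091971, chromosome 17, 34969190 to 34972156, minus strand) and Hspa1b (ENSMUSG00000090877, chromosome 17, 34956436 to 34959238, minus strand) are intronless neighbours that encode nearly the same stress-inducible HSP70. Hspa1a had 1.0003, 1.24 and 1.66 CPM in control tumors 1, 2 and 3, and 0.755, 0.855 and 2.84 CPM in IFN-γ tumors 1, 2 and 3. In counts this was 16, 22 and 29 against 13, 14 and 46. The first 2 IFN-γ tumors were the lowest of the 6 and the third was the highest, so the IFN-γ tumors enclosed the controls. Hspa1b had 8.25, 13.5 and 10.5 CPM in the controls and 9.17, 8.37 and 15.5 CPM in the IFN-γ tumors. Again IFN-γ tumor 3 was the highest, with control tumor 2 next to it.

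Neither gene was called. The log2 fold change was 0.18 for Hspa1a (SE 0.53, 95% interval -1.03 to 1.40; edgeR, adjusted p = 0.943) and 0.03 for Hspa1b (SE 0.27, 95% interval -0.59 to 0.66; adjusted p = 0.985). The intervals leave room for a change of about 1 on the log2 scale in Hspa1a in either direction. Without IFN-γ tumor 3 both fold changes were negative, -0.70 (adjusted p = 0.463) and -0.30 (adjusted p = 0.564). Counting error alone gave the 46 counts of Hspa1a in that tumor an exact 95% Poisson interval of 33.7 to 61.4. This interval met the 19.4 to 41.6 around the 29 counts of control tumor 3. It did not meet the 6.9 to 22.2 around the 13 counts of IFN-γ tumor 1. Those were the highest and lowest counts, paired after they were seen, so the gap between their intervals is no test. The 2 genes share sequence: 56.5% of the 100-base windows of Hspa1a and 49.9% of those of Hspa1b occur in another gene, mostly in each other. Their sum is less exposed to reads placed on the wrong one of the 2. Shared reads that were left out of the counts would be missing from the sum too. It came to 9.25, 14.7 and 12.2 CPM in the controls and 9.93, 9.22 and 18.4 CPM in the IFN-γ tumors. The sum spanned a 1.99-fold range, with IFN-γ tumor 3 highest and IFN-γ tumor 2 lowest, and its group means of 12.05 and 12.5 CPM were almost equal (exact permutation test, p = 0.9).

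The promoters of Hspa1a and Hspa1b are shown because they are nearly the same sequence and both hold a heat shock element. The stretches cover the 150 bases before each RefSeq start (chr17:34972157-34972306 and chr17:34959239-34959388, both minus strand, GRCm38.p6), and capitals mark matches to GAANNTTC, the head-to-head form of the element.
Hspa1a promoter: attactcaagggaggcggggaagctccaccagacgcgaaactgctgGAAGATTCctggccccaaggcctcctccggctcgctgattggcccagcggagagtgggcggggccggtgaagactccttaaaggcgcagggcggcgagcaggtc
Hspa1b promoter: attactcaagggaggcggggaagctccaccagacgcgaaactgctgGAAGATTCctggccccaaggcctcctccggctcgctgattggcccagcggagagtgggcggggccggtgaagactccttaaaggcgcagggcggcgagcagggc
Over the full windows of 300 bases, from 250 before to 50 after the start, Hspa1a and Hspa1b differed at 4 bases, written as C44T, T47C, T249G and C276T from Hspa1a to Hspa1b with position 1 at the 5′ end of the window, and 1 of these lies in the stretch printed. The match lies 104 bases before the start in both. GAANNTTC, which reads the same on both strands, occurred in 7.86% of all promoter windows and in those of Hspa1a, Hspa1b, Hsph1 and Hspb1 among the 6 genes with a window. The letters TTCNNNGAA, known as the gamma-activated site, occurred in 8.3% of all windows and in 0 of the 6.

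Hsph1 (ENSMUSG00000029657, chromosome 5, 149614287 to 149636376, minus strand) encodes HSP105, which exchanges the nucleotide of HSP70 partners. It was measured at 193, 233 and 284 CPM in control tumors 1, 2 and 3. In IFN-γ tumors 1, 2 and 3 it was 194, 197 and 304 CPM. One tumor of each group, tumor 3, was high, and the groups overlapped. Its log2 fold change was -0.03 (SE 0.20, 95% interval -0.49 to 0.42; edgeR, adjusted p = 0.979), and it was -0.29 without IFN-γ tumor 3 (adjusted p = 0.378). Its promoter is shown because it has the element in the other, tail-to-tail form, TTCNNGAA, here in capitals (chr5:149636316-149636465, minus strand, GRCm38.p6). It spans the 150 bases before a RefSeq start that lies downstream of the first base of the gene in the annotation of the counts.
Hsph1 promoter: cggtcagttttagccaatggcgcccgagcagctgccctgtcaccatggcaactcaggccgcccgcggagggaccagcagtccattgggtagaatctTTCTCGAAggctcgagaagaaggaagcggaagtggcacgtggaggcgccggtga
The tail-to-tail form occurred in 8.52% of all windows and, among the 6 genes, in those of Hsph1 alone. The E-box CACGTG, the letters bound by the clock factors CLOCK and ARNTL among others, stands in the same stretch, and was found in 7.15% of all windows.

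Dnajb1 (ENSMUSG00000005483, chromosome 8, 83608193 to 83612653, plus strand) encodes HSP40, the J-domain partner that hands substrates to HSP70. Its level was 98.9, 79.5 and 95.9 CPM in control tumors 1, 2 and 3, and 95.1, 94.3 and 144 CPM in IFN-γ tumors 1, 2 and 3. The first 2 IFN-γ tumors lay within the range of the controls and the third well above it. The log2 fold change of 0.28 (SE 0.17, 95% interval -0.11 to 0.67; edgeR, adjusted p = 0.629) rested on that tumor, and without it was 0.04 (adjusted p = 0.889).

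Hsp90aa1 (ENSMUSG00000021270, chromosome 12, 110690605 to 110702728, minus strand) encodes the inducible cytosolic HSP90, which matures kinases and steroid receptors. Control tumors 1, 2 and 3 had 569.7, 639 and 703 CPM, and IFN-γ tumors 1, 2 and 3 had 605, 580.0 and 688 CPM. The 2 groups covered almost the same range, with tumor 3 highest in each. A log2 fold change of -0.03 was measured (SE 0.10, 95% interval -0.27 to 0.21; edgeR, adjusted p = 0.954). Of its 100-base windows 47.5% occur in pseudogenes, but these held few reads: Gm12346 had 113 to 212 counts against 9112 to 12304 for Hsp90aa1. The constitutive form Hsp90ab1, named after its values were seen, was 4.99 to 5.85 times as high in CPM as Hsp90aa1 in the 6 tumors, with group means of 3311 CPM in both.

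Hspb1 (ENSMUSG00000004951, chromosome 5, 135887919 to 135889563, plus strand) encodes HSP25, the mouse form of HSP27, a small heat shock protein that holds unfolded proteins without ATP and is abundant in muscle. It had 1.88, 3.16 and 8.97 CPM in control tumors 1, 2 and 3, and 5.57, 3.24 and 3.59 CPM in IFN-γ tumors 1, 2 and 3. Control tumors 1 and 3 were the lowest and the highest of the 6, a 4.78-fold span that enclosed the IFN-γ group. The log2 fold change of -0.18 (SE 0.52, 95% interval -1.37 to 1.02; edgeR, adjusted p = 0.944) became 0.70 without control tumor 3 (adjusted p = 0.532). The promoter is shown because it holds 2 head-to-head elements, in capitals, in the 150 bases before the start (chr5:135887769-135887918, plus strand, GRCm38.p6).
Hspb1 promoter: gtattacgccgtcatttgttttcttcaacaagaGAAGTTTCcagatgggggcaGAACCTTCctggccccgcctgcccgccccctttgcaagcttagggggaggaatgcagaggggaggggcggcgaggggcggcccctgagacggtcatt
Although 42.7% of its 100-base windows occur in Hsp25-ps1, that pseudogene held 0 to 2 counts.

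Control tumor 3, the highest for Hspb1, was also the highest for skeletal muscle markers. The summed level of the 10 markers was 151, 245 and 973 CPM in control tumors 1, 2 and 3, and 399.5, 512 and 173 CPM in IFN-γ tumors 1, 2 and 3. All 10 were detected above 3 counts in some tumor, and 0 of the 10 passed the test between the groups. Other small heat shock genes that muscle expresses were highest in the same tumor. Hspb7 had 23.0 CPM there against 5.50 to 9.40 in the other 5 tumors, Hspb6 had 24.1 against 12.4 to 14.4, and Cryab, named after its values were seen, had 68.5 against 35.4 to 43.7. Hspb8 differed, with its highest value, 98.1 CPM, in IFN-γ tumor 3. What part muscle in the samples had in the values of Hspb1 was not tested. In bulk tumors, fewer cells of a type and less RNA per cell cannot be told apart.

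**Figure D3:**
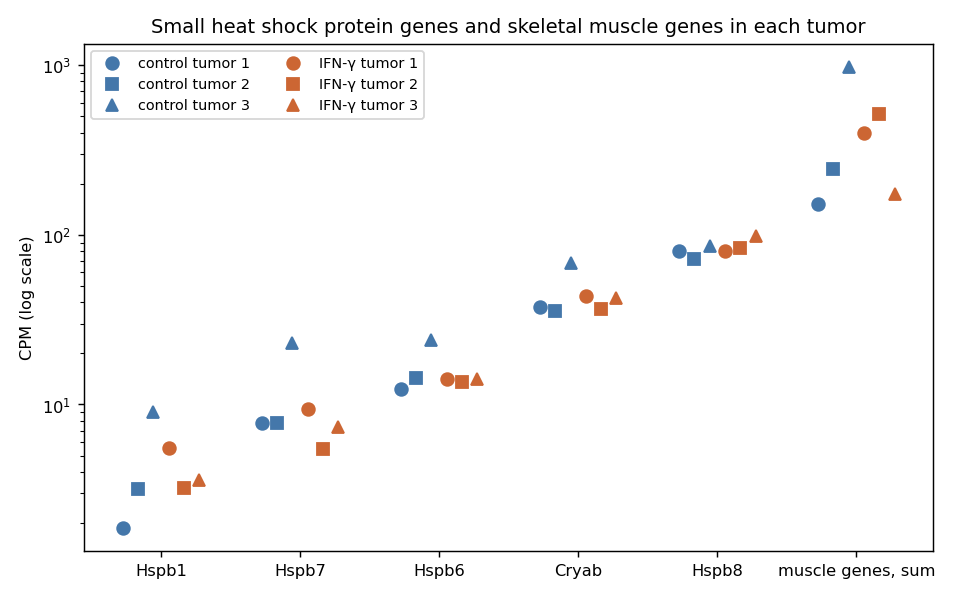
CPM on a log scale of Hspb1, of 4 related small heat shock genes and of the summed 10 skeletal muscle markers in each of the 6 tumors. Control tumor 3 (blue triangle) was highest for Hspb1, Hspb7, Hspb6, Cryab and the muscle sum, but not for Hspb8.

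Across the tumors the 9 genes did not move as one. IFN-γ tumor 3 had the highest level of 6 genes (Hspa1a, Hspa1b, Hsph1, Dnajb1, Hspa8 and Rbm3) and the lowest level of Cirbp. Control tumor 1 had the lowest level of 5 genes (Hspa1b, Hsph1, Hsp90aa1, Hspa8 and Hspb1). The span from lowest to highest tumor was smallest for Hsp90aa1 and Cirbp, 1.23-fold and 1.25-fold, and reached 3.77-fold for Hspa1a and 4.78-fold for Hspb1, the genes with the fewest reads. Within the IFN-γ group the coefficient of variation was 0.899% for Cirbp, 10.8% for Rbm3, 25.5% for Dnajb1 and 79.4% for Hspa1a.

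**Figure D4:**
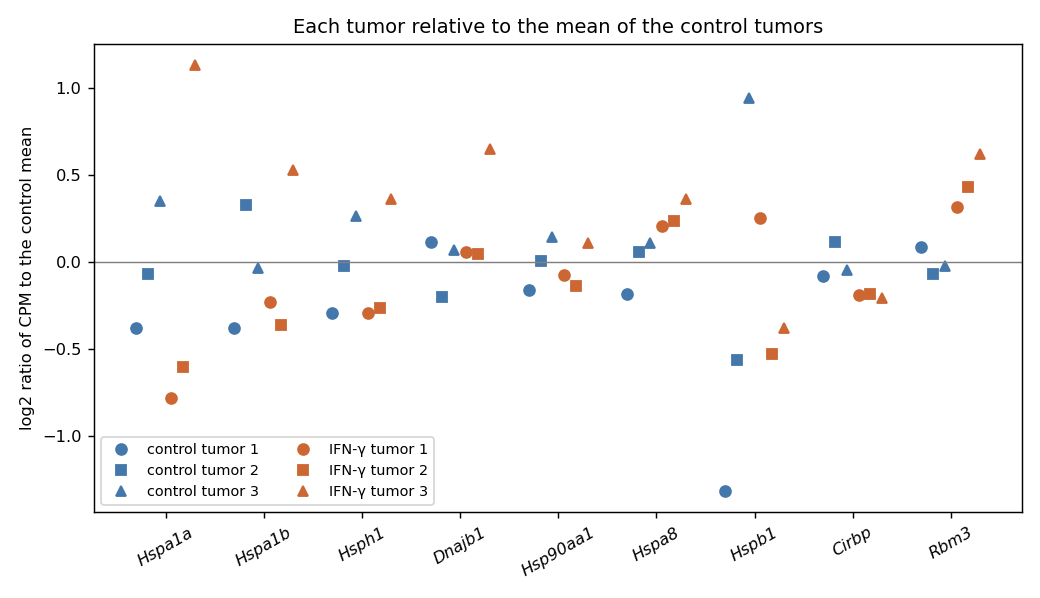
Log2 ratio of each tumor's CPM to the mean of the 3 control tumors, for the 9 genes. IFN-γ tumor 3 (orange triangle) stood highest for 6 genes, from 0.36 for Hspa8 and Hsph1 to 1.13 for Hspa1a, whereas the 3 IFN-γ tumors were almost level for Cirbp, from -0.21 to -0.18.

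Markers of non-tumor tissue also differed between the tumors, and IFN-γ tumor 3 stood apart in skin. The summed level of 8 skin epidermis markers was 75.6 CPM in it and 7.10 to 14.9 CPM in the other 5 tumors. The summed 10 leukocyte markers were lowest in it, 590.2 CPM, against 1039.5 and 1040.1 in the other IFN-γ tumors and 632, 795 and 720.1 in control tumors 1, 2 and 3. The adipocyte markers lay higher in the IFN-γ group. Their summed level was 119, 119 and 162 CPM in control tumors 1, 2 and 3. In IFN-γ tumors 1, 2 and 3 it was 173, 227 and 184 CPM, so the groups did not overlap. Single genes were higher without overlap in 7.62% of those tested. All 8 adipocyte markers had a positive log2 fold change, with a median of 2.17. In edgeR 7 of the 8 had an unadjusted p under 0.05, beside 10.2% of all genes tested. In edgeR 0 of the 8 passed with all 6 tumors and 5 passed without IFN-γ tumor 3, while DESeq2 called 5 with all 6 tumors. Of all genes tested, 2.46% were called higher without IFN-γ tumor 3 and 0.822% in DESeq2. The part of skin, leukocytes or fat in the values of the 9 genes was not tested. As a check of the label colon carcinoma, Krt20 was present at 113 to 271 CPM, but the intestinal factor Cdx2 had 0 counts in all 6 tumors. Only 4 of 9 epithelial markers passed the filter on low counts, and 2 never exceeded 3 counts. Krt8, named after its values were seen, had 12.1 CPM in control tumor 3 and 0.186 to 1.28 CPM in the other 5 tumors.

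Levels were compared between genes per length, as CPM per kilobase of annotated exon, averaged over the 6 tumors. The order was Hspa8 at 179 ± 22.3 (SD, n = 6), Hsp90aa1 at 160.5 ± 14.2, Rbm3 at 80.0 ± 15.4, Hsph1 at 32.2 ± 6.79, Dnajb1 at 31.6 ± 6.83, Cirbp at 11.7 ± 1.05, Hspb1 at 4.27 ± 2.46, Hspa1b at 3.88 ± 1.06 and Hspa1a at 0.469 ± 0.263. Ranges over the tumors overlapped between Hspa8 and Hsp90aa1, between Hsph1 and Dnajb1, and between Hspb1 and Hspa1b, so the order within these pairs is not settled. The remaining neighbours did not overlap. Hspa8, the constitutive HSP70 gene, and Hsp90aa1, the inducible HSP90 gene, thus stood far above the inducible HSP70 genes. The summed Hspa1a and Hspa1b were exceeded by Hspa8 48.7 to 89.1 times in CPM. With the length of the longest transcript in place of the exon union the order was unchanged, while Rbm3 moved to 135 and Cirbp to 23.1 CPM per kilobase. The level of Hspa8 excludes the reads held by its copies. Of the 100-base windows of Hspa1a and Hspa1b, 56.5% and 49.9% occur in another gene, and how shared reads were counted is not given. The levels of Hspa1a and Hspa1b may therefore be too low, and the ratio of Hspa8 to their sum is uncertain. Gm20481, which held 0 to 2 counts per tumor, lies within Hspa1a on the other strand, and no annotated gene overlaps Hspa1b. Whether strand was used in counting is not given, so the order of Hspa1b above Hspa1a is uncertain as well.

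Genes that work with the 9 were followed in 10 lists with 130 genes, of which 122 were tested. In this set 0 were called higher and 0 lower (edgeR), and 4 had an unadjusted p under 0.05, which is 3.28% of those tested beside 10.2% over all genes. The median log2 fold change was -0.02, and list medians ran from -0.16 for the small heat shock proteins to 0.02 for the splicing kinases and SR proteins. In the fit without IFN-γ tumor 3, 1 gene was called, the J-domain gene Dnajc21, which was lower. This is 0.82% of the 122 genes tested there, near the 0.723% of all genes called lower in that fit.

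Hsf1, the main transcription factor of the heat shock response, had 76.1, 76.1 and 81.4 CPM in control tumors 1, 2 and 3, whereas IFN-γ tumors 1, 2 and 3 had 65.4, 66.8 and 69.8 CPM. The groups did not overlap, and the log2 fold change was -0.21 (SE 0.069; edgeR, adjusted p = 0.371). In the same list Hsf4 was at 0.14 and Ppp5c at -0.05 (edgeR, adjusted p = 0.825 and 0.863), and for both the groups overlapped. Bag3, a co-chaperone that HSF1 induces strongly on stress, had a log2 fold change of 0.13 (SE 0.11, adjusted p = 0.753). Among HSP70 partners Hspa12b was at -0.40 (adjusted p = 0.536) and Bag4 at 0.14 (adjusted p = 0.629). Of the J-domain genes, Dnajb12 was at -0.20 and Dnajc2 at 0.11 (edgeR, adjusted p = 0.51 and 0.77). For the HSP90 co-chaperones Unc45a, Ppid and Cdc37l1 the log2 fold changes lay between -0.16 and -0.15, with adjusted p from 0.636 to 0.678. The 95% intervals of all 11 tested genes of that list lay between -0.41 and 0.32.

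Among RNA-binding relatives of Cirbp and Rbm3, Hnrnpa1, a splicing regulator, was at -0.22 (SE 0.088; edgeR, adjusted p = 0.445). Hnrnpa3 and Hnrnpa2b1 were at -0.17 and -0.12 (adjusted p = 0.555 and 0.623). The list of relatives also held the reticulon gene Rtn3, at 0.02. Of its 11 tested genes 4, with Rtn3 among them, had a positive and 7 a negative log2 fold change. They ranged from -0.22 to 0.12, beside 0.46 for Rbm3. For chaperonin CCT and prefoldin, which fold actin and tubulin, the 14 genes ranged from -0.10 to 0.10, with Pfdn5, Cct3 and Pfdn4 at 0.10, -0.07 and -0.10.

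**Figure D5:**
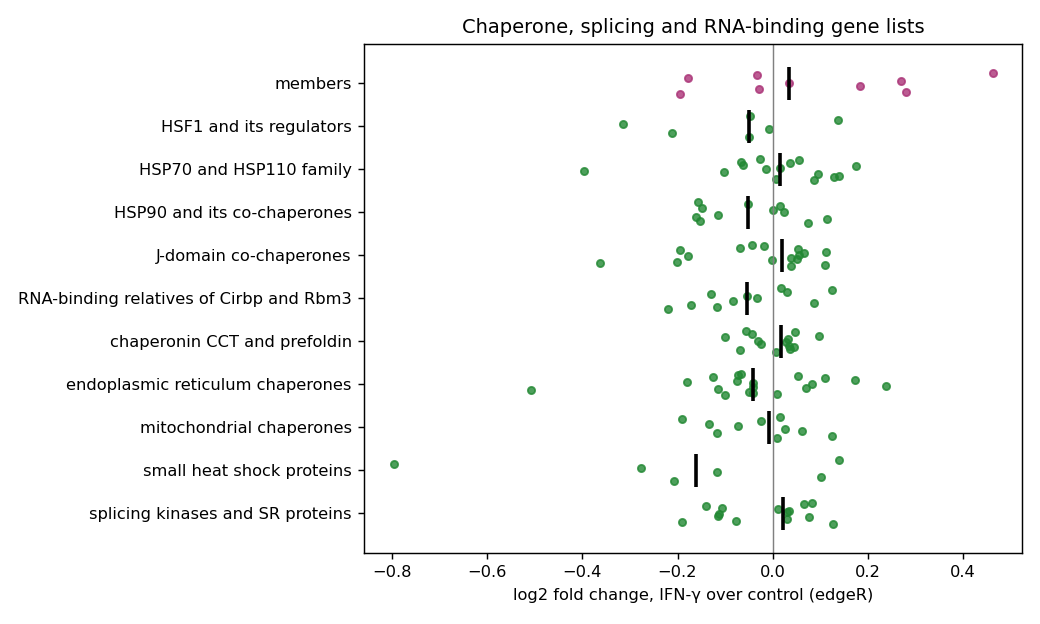
Log2 fold change, IFN-γ over control (edgeR), of each tested gene (points) and the median (bar) for the 9 genes and 10 related lists. Medians of the lists lay between -0.16 and 0.02, and Rbm3, at 0.46, was the highest point of the 9 genes and of the lists.

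Temperature, hour and handling can leave traces in other genes, and these were measured beside the 9. Among 16 tested clock genes 7 were called higher in the IFN-γ group and 2 lower (edgeR), beside 0.0794% and 0.0331% of all genes tested. In the same fit 15 of the 16 had an unadjusted p under 0.05, beside 10.2% of all genes tested. Dbp, an output gene of the clock, averaged 7.90 ± 0.962 CPM in the controls against 154 ± 19.5 CPM after treatment (SD, n = 3 each; log2 fold change 4.28, edgeR, adjusted p = 8.7e-06). Arntl, its activator, was lower by a log2 fold change of -2.12 (adjusted p = 7.3e-05), and the groups did not overlap for either gene. Of 11 glucocorticoid targets 2 were called higher. Per1, which is also a clock gene, had a log2 fold change of 1.66 and Tsc22d3 of 1.10 (edgeR, adjusted p = 0.0062 and 0.023). Of 12 immediate early genes, which rise within minutes of disturbance, 0 were called (edgeR; 2 with an unadjusted p under 0.05), and Junb and Atf3 had log2 fold changes of 0.38 and 0.97 (adjusted p = 0.389 and 0.438). The counts depended on the fit. Without IFN-γ tumor 3, 10 clock genes were called higher and 4 lower, 3 glucocorticoid targets higher and 2 lower, and Atf3 higher. With the replicate block, 5 clock genes were called higher and 2 lower and 1 glucocorticoid target higher. Without control tumor 2 or without IFN-γ tumor 1, the calls were 4 clock genes higher and 2 lower and 0 glucocorticoid targets; without control tumor 3 or without IFN-γ tumor 2, 1 glucocorticoid target was called. The differences of Rbm3 and Cirbp between the groups were thus measured in tumors whose clock genes also differed, and the part of the hour of collection in them was not tested.

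The genes with a pattern most like that of 2 members were sought among 15105 genes by Pearson's r of log2 CPM over the 6 tumors. For the sum of Hspa1a and Hspa1b these were Hyls1 (r = 0.985), Acbd4 (0.980), Smad2 (0.978), Flad1 (0.977) and Utp15 (0.972), each with a log2 fold change between -0.03 and 0.02. They varied little, Smad2 for example between 68.4 and 77.4 CPM. For Cirbp they were Gm21811 (r = 0.994), Sf1 (0.994), Mast4 (0.988), Smc3 (0.984) and Ppip5k1 (0.982), with log2 fold changes from -0.56 for Gm21811 to -0.09 for Smc3. With 6 tumors and this many genes, such values of r are found by search, and for Cirbp they partly restate the difference between the groups.

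The 6 libraries held 15759300 to 17559680 counts on genes, so that 3 counts correspond to 0.171 to 0.190 CPM, and intervals from counts cover counting error only. Each of the 9 genes was above that level in every tumor. Correlations of log2 CPM between tumors were 0.980 to 0.993, and no pair of libraries agreed within sampling noise (smallest chi-square per gene, 6.25). The tumors are separate samples by their labels, and p-values measure the spread between these samples.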

How the data were processed

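RNA from 6 tumors was sequenced, 3 per group. What the authors deposited are raw counts, 1 whole number for each gene and tumor. The submitters' processing notes name HISAT2 and mm10. The counting program, the annotation release and whether strand was used are not given in the sources used here, so reads shared by copies, overlapping genes or antisense genes are uncertain.

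Here the quasi-likelihood test of edgeR 4.0.16 (R 4.3.3) was run on these counts, after the default low-count filter and TMM scaling, with group as the only term and Benjamini-Hochberg adjustment over all genes tested at 0.05. DESeq2 1.42.0, limma 3.58.1 (voom), other scalings and filters, a block for the replicate number, Hspa1a and Hspa1b summed, and fits without 1 tumor each were the alternatives. Sums with copies, and the alternatives for the context lists and adipocyte markers, were added after seeing the data. Mean CPM was compared with two-sided exact permutation tests over 20 assignments (SciPy 1.17.1). Gene positions and lengths came from GENCODE M21 (GRCm38), which held 99.4% of the identifiers, and promoters from RefSeq (GRCm38.p6), with both strands searched. Correlations used CPM plus 0.5. Scripts were tested on simulated counts.

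The 9 genes and the lists were chosen with earlier results of these data known. Named were the 9 genes, pathway genes past the threshold, the 3 genes of each pathway list and 2 of each context list with the smallest unadjusted p, and the 5 genes most like the Hspa1a and Hspa1b sum and Cirbp. The copies, overlapping genes, Krt20, Cdx2 and the exceptions marked in the text were named after their values were seen.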

Additional observations from a re-analysis of the deposited data

How the results depend on the processing

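Over 142 fold changes recomputed for the 9 genes, 125 kept their sign and their side of the threshold, 14 changed sign without being called, and the 3 that became calls were those of Rbm3 (DESeq2 0.46, no filter 0.46, without IFN-γ tumor 3 0.37), so the count of the 9 called higher was 1 under each of these in place of 0. Changes of sign were seen in Hspa1b with library size only (-0.0044; mean CPM difference -0.0199), in Hspa1a, Hspa1b and Hspb1 with limma-voom (-0.066, -0.0057 and 0.077), and in Hspb1 with the replicate block (0.047). With 1 tumor left out in turn, the log2 fold change ran from -0.70 to 0.50 for Hspa1a, -0.30 to 0.23 for Hspa1b, -0.29 to 0.11 for Hsph1, -0.11 to 0.04 for Hsp90aa1 and -0.55 to 0.70 for Hspb1, and the mean CPM difference from -0.494 to 0.551, -1.98 to 1.64, -41.6 to 18.6, -46.6 to 20.1 and -1.93 to 1.62 in the same order. The count of the 9 called higher was 0 to 1, and that of pathway genes called lower 0 to 1. Over all genes, 4 to 381 were called higher and 2 to 112 lower, the largest counts without IFN-γ tumor 3. DESeq2 called 118 higher and 73 lower, no filter 150 and 70, and library size only 7 higher. limma-voom called 3 lower. The fit with the replicate block called 5 higher and 2 lower and 0 of the 9 genes. In the context lists, tests added after seeing the data gave 4 to 10 clock genes higher and 2 to 4 lower, 0 to 3 glucocorticoid targets higher and 0 to 2 lower, and 0 to 1 immediate early genes higher with 1 tumor left out. Without a filter 11 clock genes were called higher, and 4 glucocorticoid targets higher and 1 lower. DESeq2 called 1 glucocorticoid target lower, and the replicate block 1 higher. The deviations of the same-numbered tumors were not positively correlated (-0.241, -0.005 and -0.221). Whether a shared number stands for a shared day or batch is not given in the sources used here and was not tested. The longest transcript moved the level per length of Hspa8 to 243, of Hsp90aa1 to 192 and of Hsph1 to 49.1 CPM per kilobase. The cause of these changes was not tested. With 3 tumors per group, exact tests could not go below p = 0.1.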

Other observations

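Chaperones of the endoplasmic reticulum and mitochondria were measured as further lists. Of 19 tested endoplasmic reticulum genes 7 had a positive and 12 a negative log2 fold change, and 0 were called (edgeR; 2 with an unadjusted p under 0.05). Herpud1, which serves degradation of misfolded proteins of that compartment, had 105, 96.0 and 104 CPM in control tumors 1, 2 and 3 and 112, 118 and 129 CPM in IFN-γ tumors 1, 2 and 3, so the groups did not overlap (log2 fold change 0.24, SE 0.078; edgeR, adjusted p = 0.371). P4hb, a disulfide isomerase, was at 0.17 (adjusted p = 0.496), also without overlap. Ddit3, the stress factor CHOP, was at -0.51 (SE 0.19, adjusted p = 0.400), with 29.8, 23.8 and 20.9 CPM in the controls and 15.6, 14.9 and 21.9 CPM in the IFN-γ tumors. In that gene IFN-γ tumor 3 lay among the controls.

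The 10 mitochondrial chaperone genes had 5 positive and 5 negative log2 fold changes, from -0.19 for Lonp1 to 0.13 for Clpx, and Hspd1, the mitochondrial HSP60, was at -0.13 (edgeR, adjusted p = 0.745). Splicing kinases of the CLK family are known to sense temperature and to act on SR proteins. Of 14 tested genes of this group 0 were called (edgeR), with Clk2 at -0.19 (adjusted p = 0.491), Srsf6 at -0.14 (adjusted p = 0.563) and Srsf11 at -0.11 (adjusted p = 0.649). Clk2 and Srsf6 were lower in each IFN-γ tumor than in any control tumor. Clk1 and Clk4, named after their values were seen, were at 0.13 and 0.03 (adjusted p = 0.796 and 0.968).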
